A study of Mus musculus with 15 samples.

Results

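The glycosyltransferases that build and finish the sugar chains of mucins were followed in mouse colon, as the genes whose symbols start with Galnt, B3gnt, B3galt, B4gal, Fut, Gcnt, C1galt, St3gal, St6gal or St8sia. The rule found 81 of the 22063 genes in the deposited table, by name alone and with no use of their values. Of these, 58 had at least 1 FPKM (sequenced fragments scaled to transcript length and library depth) in at least 5 of the 15 libraries and were tested. RNA sequencing covered 3 groups of 5 libraries from wild-type C57BL/6 colon. The control group is described as a blank control. The model group is labelled AOM/DSS, a regimen that pairs the carcinogen azoxymethane with dextran sulfate sodium, an agent that damages the colon lining. The WMW-H group had the same model and the treatment labelled WMW-H, which the series connects with the herbal formula Wumei Wan. The sources used here give no age, sex, dose or schedule.

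Mucins are long proteins whose serines and threonines carry dense O-linked sugar chains, and those chains make up most of the mass of a gel-forming mucin. Polypeptide GalNAc-transferases (Galnt) place the first sugar. A core enzyme then adds galactose (core 1) or N-acetylglucosamine (core 3), and branching, extension, fucosylation and sialylation follow. The name-based rule also takes in relatives that act mainly on other carriers, such as glycolipids, N-linked chains and proteoglycans. The carrier is given for only some of them below, so a member without such a remark need not be a mucin enzyme.

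The table used here holds FPKM, and the depth was read from the steps between the low FPKM values, which gave 16300000 to 21100000 fragments per library. At these depths 1 FPKM over a transcript of 2 kilobases stood for 32.6 to 42.2 fragments. Libraries of a group lay close together: the correlation of log2(FPKM + 1) over the tested genes was 0.992 to 0.995 within groups and 0.939 to 0.972 between them. In genes with 20 to 3000 fragments, the variance within a group was 1.54 to 2.79 times what counting alone gives. Above 3000 fragments it was 2.96 times in control, 2.82 in the model and 9.78 in WMW-H. The labels call the libraries replicates without saying that they came from separate animals, so the p-values measure only the spread between these libraries, which may be technical. Calls were frequent: in the model against control, 66.1% of all 12917 tested genes passed.

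The members together were highest in control. Their summed FPKM was 2620 to 2640 in the control libraries, 2310 to 2360 in the model and 2340 to 2380 in WMW-H. Most of both differences from control came from St3gal4. It had 442.4 to 466.1 FPKM in control, 175.1 to 213.0 in the model and 264.7 to 295.9 in WMW-H. The classes did not fall together in the model. Summed FPKM was higher there for the galactosyltransferases and for the B3gnt, St6gal with St6galnac, and St8sia genes. It was lower for the Galnt, C1galt, Gcnt, B4galnt, Fut and St3gal genes. By mean FPKM over all libraries the highest members were St6galnac6 (468.8), St3gal4 (311.5), B4galnt2 (272), B3galt5 (120) and B3gnt3 (116.4), all enzymes of chain extension or chain ends. St6galnac6 alone made up 19.2% of the summed level and St3gal4 12.8%. In all, 32 tested members averaged at least 10 FPKM. The 23 members that were not tested stayed at or below 1.48 FPKM in every library, and Galntl5 was listed at 0 in all of them.

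In the model against control, 18 tested members were higher and 27 lower, and 13 did not pass. The groups did not overlap for 43 of the 58, where 52.9% of all genes had groups that did not overlap. Among all tested genes 45.5% were higher and 20.6% lower, so the members went down more often (46.6%) and up less often (31%) than the table as a whole, a difference in shares that was not tested. Their median change was -0.06 on the log2(FPKM + 1) scale, beside 0.12 for all genes. In WMW-H against the model, 26 members were higher and 19 lower, where 25.9% of all genes were higher and 40.9% lower (66.8% in either direction). The groups did not overlap for 40 members, with a background of 51.2%. The median change was 0.00 for members and -0.07 for all genes. In WMW-H against control, 19 were higher and 22 lower, with 35.4% and 24.1% of all genes (59.5% in either direction). Groups did not overlap for 34 members, with a background of 42.3%. The 3 comparisons share libraries with each other, so they are given side by side and not as independent results. These shares of all genes are also the background for the counts of each class and list given below. The members lower than control, in the model and in WMW-H, include St8sia4 and Fut1. Those higher in WMW-H, in both of its comparisons, include Fut10. These genes passed the filter wholly or mainly through the group in which they were high, so the counts depend in part on calls tied to the filter. Scaling moved the all-gene background: 68.9% of calls in the model were higher as deposited, 51.4% under size factors (median of ratios) and 47.5% under quantile normalization, with all-gene medians of 0.01 and -0.02. With size factors 15 members were higher and 31 lower, where 31.5% of all genes were higher and 29.8% lower. With quantile normalization 14 members were higher and 32 lower, where 29.1% of all genes were higher and 32.3% lower.

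**Figure D1:**
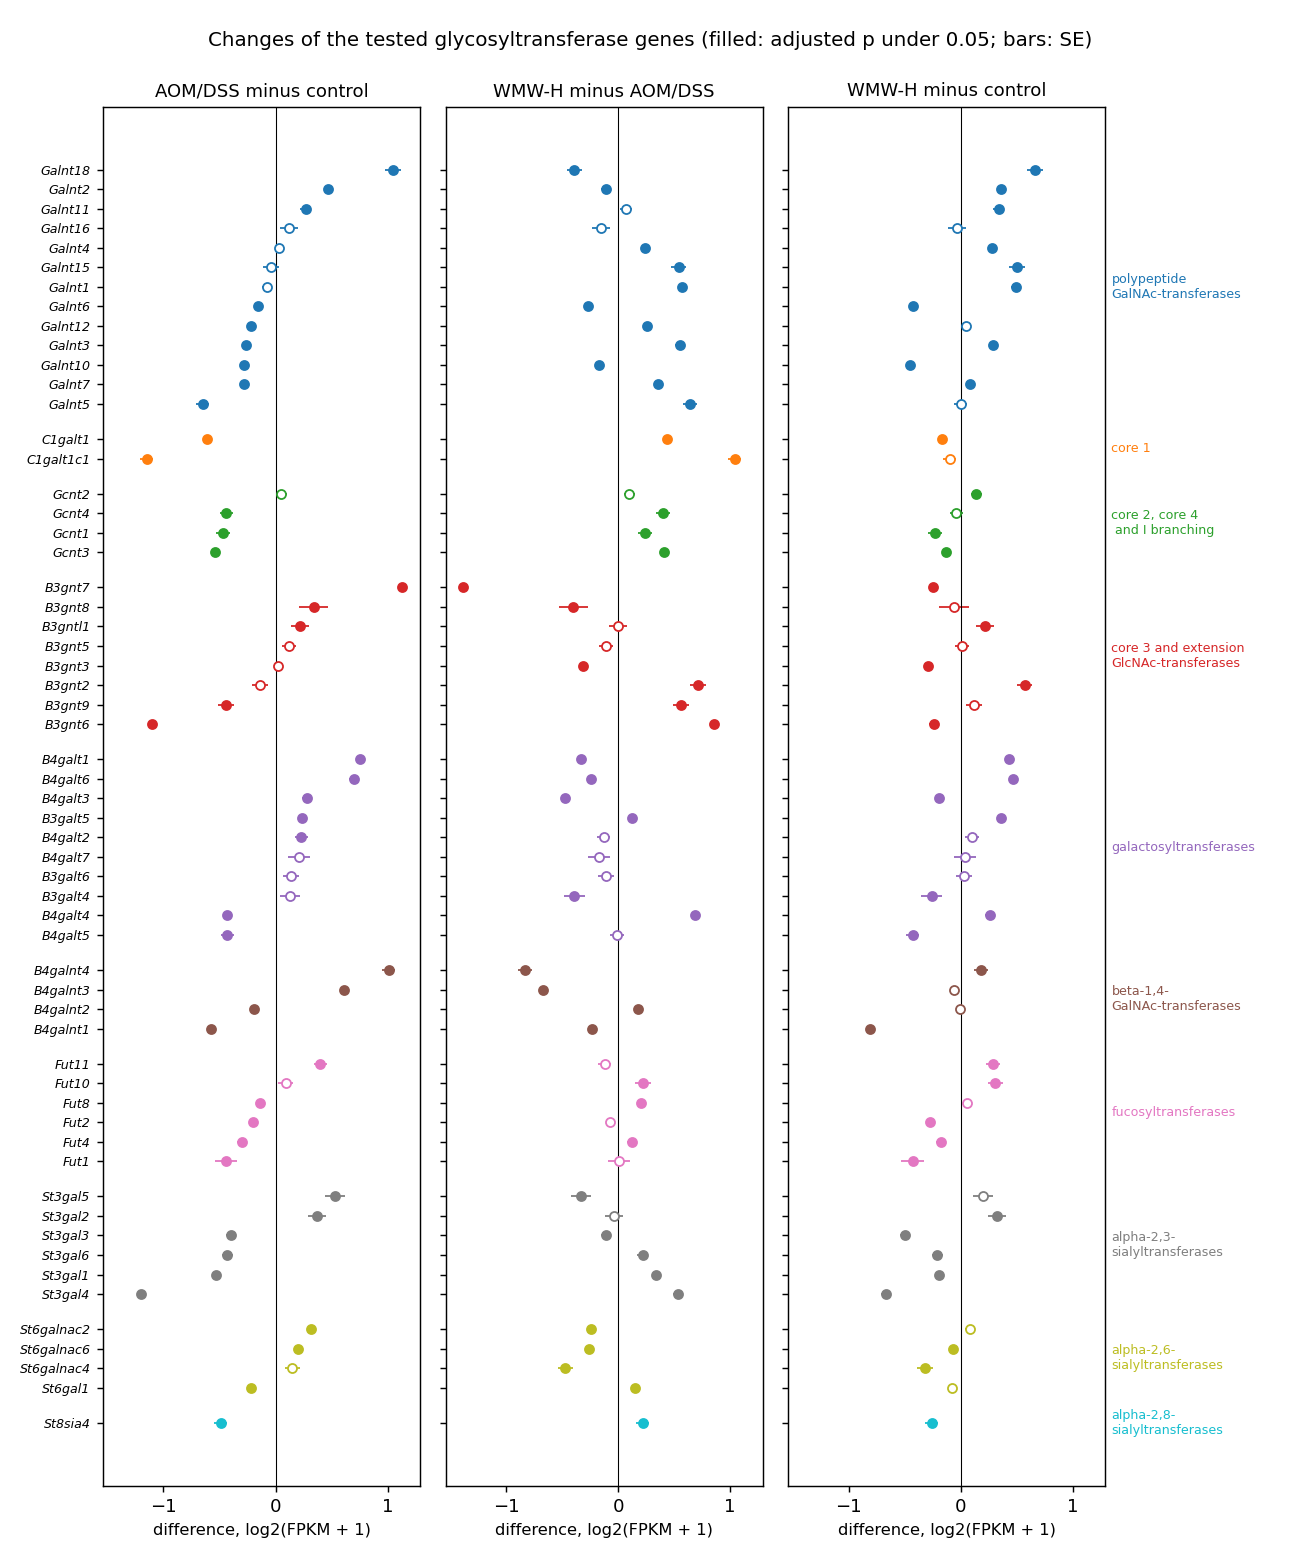
Difference of group means on the log2(FPKM + 1) scale (x axis) for the 58 tested members (y axis, grouped and coloured by role) in the 3 comparisons. Filled points passed an adjusted p of 0.05, open points did not, and bars are the SE. In the left panel core 1 and core 2 makers lie at or left of 0 except Gcnt2, and B3gnt7 (1.13) and St3gal4 (-1.20) mark the ends.

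Changes of at least 1.5-fold on this scale were less common. In the model, 6 members rose that far (B3gnt7, Galnt18, B4galnt4, B4galt1, B4galt6 and B4galnt3), where 9.63% of all genes did. Another 5 fell that far (St3gal4, C1galt1c1, B3gnt6, Galnt5 and C1galt1), where 4.67% of all genes did. WMW-H against the model had 5 such rises (background 4.28%) and 3 such falls (background 6.25%). WMW-H against control had 1 rise, Galnt18, and 2 falls, B4galnt1 and St3gal4, with backgrounds of 5.38% and 2.9%.

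The sequence before the start of 3 of these genes is shown because they moved differently in the model: St3gal4 fell by 1.20, B4galt1 rose, and B4galnt2, the third most abundant member, moved by little. They were chosen after their values were seen. The 250 bases before each start come from RefSeq (GRCm38.p6), all 3 on the minus strand and printed 5′ to 3′ in the direction of transcription: St3gal4 at chr9:35116865-35117114, B4galt1 at chr4:40853985-40854234 and B4galnt2 at chr11:95914872-95915121. Capitals mark the GC box GGGCGG on either strand, the letters bound by the SP and KLF factors.
St3gal4: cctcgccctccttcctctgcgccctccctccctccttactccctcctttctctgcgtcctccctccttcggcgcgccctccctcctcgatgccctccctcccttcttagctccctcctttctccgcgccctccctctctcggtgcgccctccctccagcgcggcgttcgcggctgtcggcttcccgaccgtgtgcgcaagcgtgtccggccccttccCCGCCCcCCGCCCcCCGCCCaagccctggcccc
B4galt1: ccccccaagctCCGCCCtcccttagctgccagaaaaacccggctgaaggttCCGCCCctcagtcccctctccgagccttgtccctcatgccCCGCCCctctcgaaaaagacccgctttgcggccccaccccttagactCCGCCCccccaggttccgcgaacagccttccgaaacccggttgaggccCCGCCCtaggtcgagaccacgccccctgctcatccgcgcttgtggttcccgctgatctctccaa
B4galnt2: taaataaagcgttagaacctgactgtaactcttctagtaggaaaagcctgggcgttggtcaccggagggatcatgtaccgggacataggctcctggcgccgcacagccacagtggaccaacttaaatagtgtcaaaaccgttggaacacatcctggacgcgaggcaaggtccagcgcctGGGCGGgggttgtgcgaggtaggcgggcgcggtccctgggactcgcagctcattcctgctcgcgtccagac
The GC box was found 3 times in the St3gal4 window, 5 times in that of B4galt1 and once in that of B4galnt2. Of all 32851 RefSeq windows of this length, 32.7% held it at least once, as did 50% of 78 windows for the 58 member symbols found in that table. The letters CTTTGA, the core of TCF/LEF sites through which Wnt signals act, were in 11.5% of member windows and 13.8% of all windows. The letters CAATAAA, of the intestinal factor CDX2, were in 2.56% and 4.2%. Neither of these was in the 3 windows shown. All were searched on both strands, and none contains another. A match is a string of letters and not a binding site, and no match says nothing of a factor.

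Markers of cell types also differed between the groups, in tissue labelled colon with colon epithelial cells as its cell type. Of 12 goblet cell genes, 11 were lower and 1 higher in the model, and 8 were higher and 3 lower in WMW-H against it. Their summed FPKM was 11900 to 12100 in control, 7840 to 7990 in the model and 9730 to 9890 in WMW-H. Tff3 was the 1 that rose (0.44). Clca1, Agr2 and Spdef had the smallest p of that list, and Spdef, a goblet cell transcription factor, was at 129 ± 5.11, 53.5 ± 1.3 and 58.5 ± 1.3 FPKM. Absorptive colonocyte genes summed to 7760 to 7930, 5720 to 5760 and 6620 to 6730 FPKM, with 9 of 12 lower and 2 higher in the model. The 2 higher were Ms4a12 (0.70) and Slc20a1 (0.44). Undifferentiated crypt genes summed to 117 to 124, 174 to 184 and 144 to 155 FPKM, with 4 of 7 tested higher and 2 lower in the model, the latter being Mki67 (-0.19) and Pcna (-0.15), genes of dividing cells. Exocrine pancreas genes summed to 23100 to 23800, 5230 to 5390 and 9230 to 9720 FPKM, with 11 of 11 lower in the model and 11 of 11 higher in WMW-H against it. Seminal vesicle genes summed to at most 3.48 FPKM in control, 2590 to 2730 in the model and at most 4.31 in WMW-H. Pate4 of that list was listed at 0 in control. Paneth cell genes summed to 73.4 to 77.0, 922 to 981 and 380 to 411 FPKM, with Defa26 listed at 0 in control. Macrophage genes summed to 295 to 317, 657 to 669 and 508 to 550 FPKM, with 8 of 8 higher in the model. Genes of T and cytotoxic cells summed to 66.5 to 71.3, 21.9 to 27.8 and 27.8 to 29.4 FPKM, with 7 of 8 lower in the model. The 1 that rose there was Cd4 (0.50), from 4.12 ± 0.355 to 6.24 ± 0.617 FPKM. In bulk RNA, fewer cells of a type and less RNA per cell cannot be told apart, and the part of these markers in the members' changes was not tested. The pancreas and the seminal vesicle are organs outside the colon, and the source of their transcripts, which differed with group, was not tested. The members' levels are thus those of the whole samples and not of colon epithelium alone.

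The core enzymes were lower in the model and stood nearer to control in WMW-H. C1galt1 (ENSMUSG00000042460), which adds galactose to make core 1, had 35.74, 36.88, 35.29, 35.76 and 37.05 FPKM in the control libraries. The model libraries had 23.95, 22.80, 23.24, 24.05 and 22.87 FPKM, and WMW-H had 32.02, 32.82, 30.02, 32.08 and 33.45 FPKM. The groups did not overlap: every model library was below every WMW-H library, and every WMW-H library below every control library. C1galt1 fell in the model by 0.61 on the log2 scale (SE 0.03, adjusted p = 1.91e-11) and was 0.44 higher in WMW-H than in the model (adjusted p = 2.22e-09). Its level in WMW-H was below control (-0.17, adjusted p = 0.000203).

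C1galt1c1 (ENSMUSG00000048970) encodes Cosmc, the chaperone without which C1galt1 does not fold into an active enzyme. Its control libraries had 32.35, 31.36, 29.09, 33.06 and 29.80 FPKM. Its model libraries had 13.05, 12.80, 13.20, 13.03 and 15.56 FPKM, replicate 5 standing above the rest, and WMW-H had 30.67, 31.25, 25.56, 27.76 and 29.46 FPKM. The mean in control was thus 2.3 times that in the model, and the mean in WMW-H 2.14 times. The log2 change was -1.15 in the model (SE 0.06, adjusted p = 2.01e-11) and 1.04 in WMW-H against the model (adjusted p = 1.23e-10). Against control the WMW-H libraries overlapped, with a change of -0.10 that did not pass (adjusted p = 0.141). It passed with size factors (-0.15, adjusted p = 0.0268; range over alternatives 0.0268 to 0.354).

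B3gnt6 (ENSMUSG00000074004), the core 3 synthase, which in the gut is the alternative to core 1 on the same first sugar, had the same order of groups. It had 29.49, 28.60, 29.54, 27.54 and 28.84 FPKM in control. The model libraries had 13.73, 12.58, 12.55, 11.95 and 13.78 FPKM, and WMW-H had 24.95, 22.43, 24.46, 25.29 and 24.26 FPKM. No library of 1 group reached into another, and the model lay lowest. B3gnt6 fell in the model by 1.1 (SE 0.04, adjusted p = 3.38e-13), rose in WMW-H against the model by 0.86 (adjusted p = 1.93e-11), and was below control in WMW-H (-0.24, adjusted p = 0.00013). Within a library, the FPKM ratio of B3gnt6 to C1galt1 had a median of 0.778 in control, 0.552 in the model and 0.779 in WMW-H. The highest model ratio, 0.602, lay under the lowest ratio of the other groups, 0.683.

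Of 5 branching enzymes 4 were tested, and 3 were lower in the model, where 20.6% of all tested genes were lower. Gcnt3 (ENSMUSG00000032226), the mucin-type enzyme that makes core 2 and core 4 branches, was at 72.3 ± 2.25 FPKM in control (SD, n = 5 here and below), 49.4 ± 0.769 in the model and 66.1 ± 1.56 in WMW-H. Its log2 changes were -0.54 in the model (adjusted p = 7.32e-12), 0.41 in WMW-H against the model (adjusted p = 4.36e-10) and -0.13 in WMW-H against control (adjusted p = 0.000506). Gcnt1 and Gcnt4, which also make core 2 branches, were far lower in FPKM and fell in the model by 0.47 and 0.44. Gcnt1 went from 5.83 ± 0.376 to 3.93 ± 0.478 FPKM and was at 4.82 ± 0.126 in WMW-H. Gcnt4 stood at 2.37 ± 0.15 FPKM in control, 1.49 ± 0.171 in the model and 2.27 ± 0.148 in WMW-H. Gcnt2, which branches polylactosamine chains into the I antigen and does not act on mucin cores, did not pass in the model (0.05, adjusted p = 0.38). The ratio of Gcnt3 to C1galt1 stayed within 1.90 to 2.16 over all 15 libraries.

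**Figure D2:**
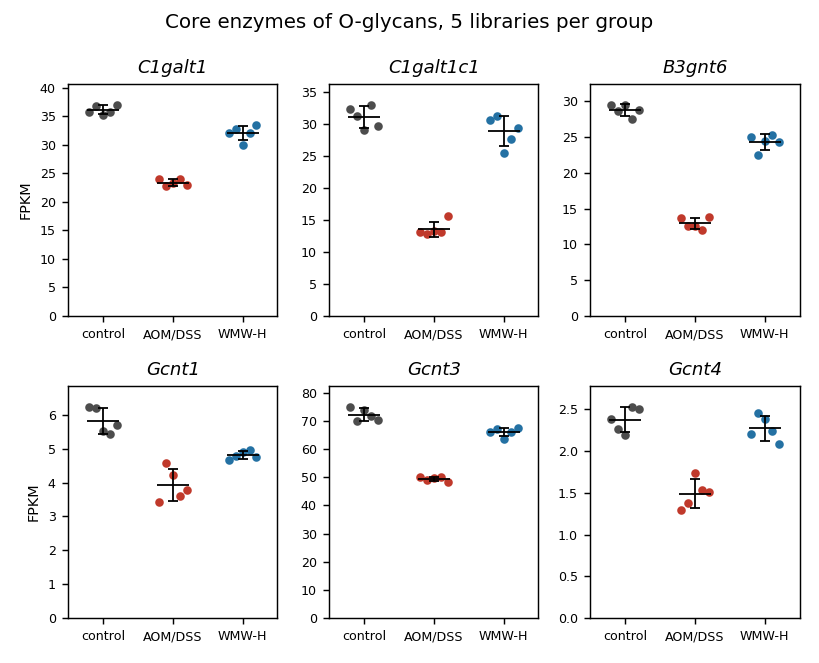
FPKM (y axis, from 0) of 6 core enzymes in each library (points) of the 3 groups (x axis), with the mean and SD in black. The model libraries lie lowest in every panel, C1galt1c1 at 12.8 to 15.6 FPKM against 29.1 to 33.1 in control.

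The enzymes that place the first sugar did not move as a block. Of 19 Galnt genes 13 were tested, and in the model 3 were higher and 6 lower (all genes 45.5% and 20.6%) and 4 did not pass. In WMW-H against the model 7 were higher and 4 lower (all genes 25.9% and 40.9%). Against control 8 were higher and 2 lower (all genes 35.4% and 24.1%). Their median change against control was 0.28 on the log2 scale, beside 0.05 for all genes. The most abundant by mean FPKM were Galnt10 (59.43), Galnt12 (58.19) and Galnt6 (56.48).

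Galnt5 (ENSMUSG00000026828) had the steepest fall in the model among the tested Galnt genes. It had 9.82, 9.09, 9.68, 8.92 and 8.63 FPKM in control, 6.05, 4.94, 5.40, 5.33 and 6.02 in the model and 8.39, 9.34, 9, 9.86 and 9.39 in WMW-H. The model libraries were below all others, whereas control and WMW-H overlapped. Its log2 change was -0.65 in the model (SE 0.06, adjusted p = 2.53e-08), 0.64 in WMW-H against the model (adjusted p = 3.44e-08) and 0.00 against control (SE 0.06, adjusted p = 0.948). Galnt7 and Galnt12, of which Galnt7 works on peptides that already carry a first sugar, fell by 0.28 and 0.22 in the model and were 0.36 and 0.26 higher in WMW-H than there. Galnt7 in WMW-H exceeded control by 0.08 (adjusted p = 0.0175). The call was lost with size factors (0.03, adjusted p = 0.353) and quantile normalization (0.05, adjusted p = 0.18), with a range over alternatives of 0.0104 to 0.353. Galnt12 did not pass against control (0.05, adjusted p = 0.201), but did when WMW-H replicate 3 was left out (0.07, adjusted p = 0.0314, and up to 0.904 over all alternatives).

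Other Galnt genes rose above control in WMW-H. Galnt3, whose product glycosylates mucins and the hormone FGF23, was at 19.5 ± 0.213 FPKM in control, 16.1 ± 0.792 in the model and 24.1 ± 1.24 in WMW-H, with a rise of 0.29 over control (adjusted p = 7.01e-06). Galnt4 was at 38.8 ± 1.19, 39.7 ± 0.886 and 47.2 ± 2.24 FPKM. It rose in WMW-H by 0.24 over the model and 0.28 over control. Its change in the model against control was 0.03 (adjusted p = 0.427) and turned to -0.09 with size factors (adjusted p = 0.0246) and -0.08 after quantile normalization (adjusted p = 0.0372; range over alternatives to 0.769). Galnt4 shares exons with Poc1b on the same strand in GENCODE M21, and Poc1b averaged 9.32 FPKM in control, 9.94 in the model and 10.9 in WMW-H, so reads of the pair may be split between them. Galnt1, singled out with its values known, had means of 23.5 ± 0.403, 22.2 ± 0.545 and 33.6 ± 2.43 FPKM, and its WMW-H libraries were above all others.

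A different order was seen for Galnt10 and Galnt18. Galnt10 had 69.8 ± 1.67 FPKM in control, 57.5 ± 1.05 in the model and 51.0 ± 2.16 in WMW-H. It fell in the model by 0.28 and was a further 0.17 lower in WMW-H (log2 change -0.17, adjusted p = 7.71e-05). Its groups stood apart from one another. Galnt6, chosen after its values were seen, ran in the same order (64.3 ± 1.38, 57.5 ± 0.59 and 47.6 ± 2.31 FPKM). Galnt18 (ENSMUSG00000038296) went up from a low level: control had 1.65, 1.54, 1.85, 1.67 and 1.81 FPKM, the model 4.23, 4.87, 4.44, 4.23 and 5.18, and WMW-H 3.67, 3.25, 2.80, 3.41 and 3.21. Its log2 change was 1.05 in the model (SE 0.07, adjusted p = 3.18e-10), -0.39 in WMW-H against the model (adjusted p = 6.42e-05) and 0.66 in WMW-H against control (adjusted p = 2.37e-07).

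**Figure D3:**
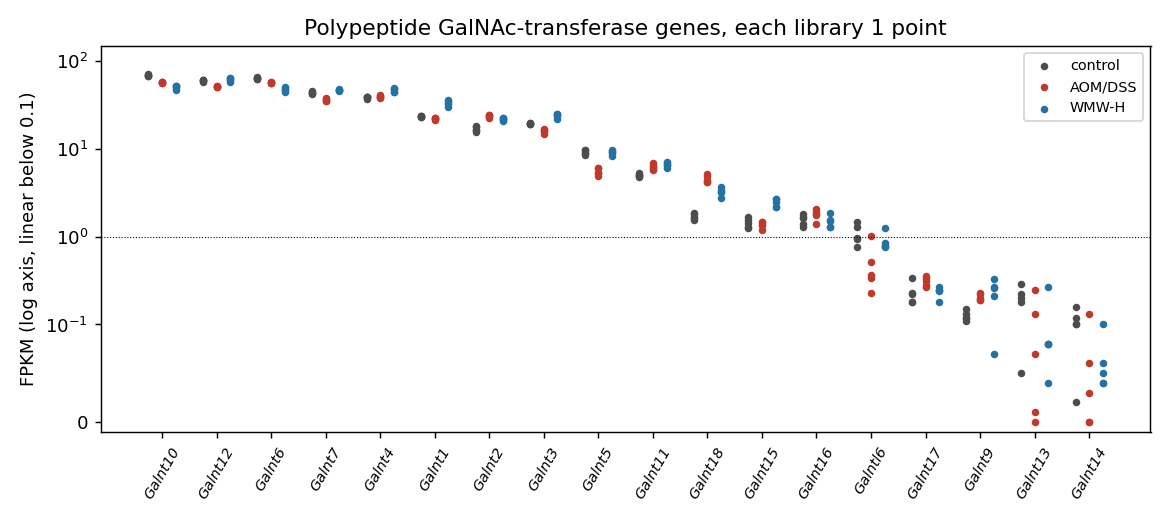
FPKM (y axis, log axis that is linear below 0.1) of 18 Galnt genes above 0 (x axis, ordered by mean), each library 1 point and coloured by group; the dotted line is 1 FPKM. Galnt18 stands apart in the model (4.23 to 5.18 FPKM) from control (1.54 to 1.85 FPKM), while Galnt10 descends from control through the model to WMW-H.

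Of 9 B3gnt genes, most of which lengthen the chains, 8 were tested, with 3 higher and 2 lower in the model (all genes 45.5% and 20.6%). B3gnt7 (ENSMUSG00000079445) rose in the model and fell in WMW-H against it. Its rise was the largest of the tested members on the log2(FPKM + 1) scale, while by the ratio of mean FPKM Galnt18 (2.69) and B4galnt4 (2.49) stood above it (2.21). It adds N-acetylglucosamine to growing chains and is known for sulfated polylactosamine, including keratan sulfate. Control libraries had 55.20, 54.38, 58.75, 58.69 and 56.26 FPKM, and model libraries 129.1, 123.9, 126.1, 125.2 and 121.3. WMW-H had 48.31, 48.55, 44.97, 47.66 and 47.98 FPKM, below every control library. The log2 change was 1.13 in the model (SE 0.03, adjusted p = 1.15e-15), -1.38 in WMW-H against the model (SE 0.03, adjusted p = 2.27e-16) and -0.25 against control (adjusted p = 1.33e-06). The mean in the model was 2.21 times control and 2.63 times WMW-H. Within a library, the FPKM ratio of B3gnt7 to the core 3 synthase B3gnt6 had a median of 1.95 in control, 9.85 in the model and 1.94 in WMW-H, and the ranges of control (1.87 to 2.13) and WMW-H (1.84 to 2.16) overlapped.

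B3gnt3, which extends core 1, was more abundant in FPKM and differed in WMW-H. It had 123 ± 1.84 FPKM in control, 125 ± 3.90 in the model and 101 ± 2.74 in WMW-H, and was lower in WMW-H by 0.31 than in the model (log2 change -0.31, adjusted p = 1.23e-08) and by 0.29 than in control. The change in the model, 0.02 (adjusted p = 0.47), passed with TPM (0.07, adjusted p = 0.0315) and turned to -0.10 with size factors (adjusted p = 0.0023) and -0.02 with quantile normalization (adjusted p = 0.431; range over alternatives to 0.842). B3gnt2, the main polylactosamine enzyme, was highest in WMW-H: 22.8 ± 2.52 FPKM in control, 20.6 ± 1.61 in the model and 34.2 ± 2.63 in WMW-H, with a rise of 0.71 over the model (adjusted p = 1.52e-07) and 0.57 over control. In the model against control its change of -0.14 did not pass (adjusted p = 0.0974). It did pass with size factors, quantile normalization and the replicate block (adjusted p = 0.0172), and without control replicate 5 (adjusted p = 0.0334) or model replicate 2 (adjusted p = 0.0457), over alternatives from 0.00358 to 0.279.

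Galactosyltransferases went in opposite directions. B4galt1 (ENSMUSG00000028413), which adds the galactose of N-acetyllactosamine, had 27.61, 27.86, 29.05, 28.95 and 27.17 FPKM in control. The model had 48.53, 47.71, 47.85, 48.40 and 47.86 FPKM, and WMW-H had 38.75, 37.52, 37.14, 39.25 and 37.99. The groups did not overlap, and WMW-H stood between the others. The log2 change was 0.75 in the model (SE 0.03, adjusted p = 7.31e-14), -0.33 in WMW-H against the model and 0.43 in WMW-H against control. B4galt4, which prefers sulfated N-acetylglucosamine, went the other way, with 21.6 ± 1.45, 15.7 ± 0.686 and 26.0 ± 0.816 FPKM. It fell in the model by 0.43 and rose in WMW-H by 0.69 over the model and 0.26 over control (adjusted p = 8.15e-05). B4galt6, a lactosylceramide synthase of glycolipids, rose in the model by 0.70, from 7.19 ± 0.296 to 12.3 ± 0.255 FPKM, and was at 10.3 ± 0.64 in WMW-H. B3galt5, which makes type 1 chains, rose in each group in turn, from 104 ± 1.59 in control to 123 ± 1.47 in the model and 134 ± 6.22 FPKM in WMW-H. The last step, 0.12, had overlapping libraries and lost its call with TPM (0.07, adjusted p = 0.0597; range over alternatives 4.43e-06 to 0.0597). In all, 10 of 13 galactosyltransferase genes were tested, and 5 were higher and 2 lower in the model (all genes 45.5% and 20.6%).

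The 4 GalNAc-transferases of chain ends were all tested, and all passed in the model, as did 66.1% of all tested genes. B4galnt2, which makes the Sda antigen on colon mucins, was the most abundant of them in FPKM, with 284 ± 4.73 in control, 249 ± 2.82 in the model and 283 ± 2.83 in WMW-H. It fell by 0.19 in the model, rose by 0.18 in WMW-H against it, and differed by -0.01 from control in WMW-H (SE 0.02, adjusted p = 0.741). That last difference passed only with size factors (-0.06, adjusted p = 0.0136; range over alternatives 0.0136 to 0.944). B4galnt3 and B4galnt4 make LacdiNAc, in which N-acetylgalactosamine takes the place of galactose. B4galnt3 (ENSMUSG00000041372) had 8.42, 8.04, 8.12, 8.29 and 8.03 FPKM in control, 13.40, 13.01, 12.78, 12.69 and 13.03 in the model and 7.67, 7.56, 8.13, 7.88 and 7.65 in WMW-H. B4galnt4 (ENSMUSG00000055629) had 1.92, 1.85, 2.08, 2.37 and 2.37 FPKM in control, 5.90, 5.34, 4.97, 4.92 and 5.23 in the model and 2.57, 2.3, 2.58, 2.64 and 2.56 in WMW-H. For both genes every model library was above every other library, and control and WMW-H overlapped.

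B4galnt3 rose in the model by 0.61 (adjusted p = 8.15e-11) and fell in WMW-H against it by 0.67 (adjusted p = 3.7e-11). Its difference of -0.06 from control in WMW-H (adjusted p = 0.118) passed with size factors and quantile normalization (adjusted p = 0.00274; range over alternatives 0.00274 to 0.215). B4galnt4 rose by 1.01 (adjusted p = 2.64e-10) and fell by 0.83 (adjusted p = 5.15e-09). It was 0.18 above control in WMW-H (adjusted p = 0.0205), a call lost without control replicate 1 (adjusted p = 0.0534) or 2 (adjusted p = 0.0585). The call was also lost with size factors (adjusted p = 0.0595), quantile normalization (adjusted p = 0.194) and the exact rank test (adjusted p = 0.0581). Over alternatives the adjusted p ran from 0.0112 to 0.194. B4galnt1, which acts on gangliosides and not on mucins, fell in both other groups: 106 ± 2.42 FPKM in control, 70.3 ± 1.76 in the model and 59.8 ± 2.73 in WMW-H. The fall of 0.81 from control to WMW-H (log2 change -0.81, adjusted p = 6.23e-13) was the largest of the tested members on the log2(FPKM + 1) scale. By the ratio of mean FPKM, WMW-H over control, Fut1 (0.541) fell further than B4galnt1 (0.567).

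Sialyltransferases, which cap chains with negatively charged sialic acid, held the most abundant members. All 6 St3gal genes were tested, with 2 higher and 4 lower in the model (all genes 45.5% and 20.6%). St3gal4 (ENSMUSG00000032038), which caps galactose in alpha-2,3 linkage, had 452.3, 466.1, 453.0, 442.4 and 453.1 FPKM in control. The model had 200.9, 175.1, 213.0, 196.3 and 198.7 FPKM, and WMW-H had 279.7, 288.4, 293.3, 295.9 and 264.7. All WMW-H libraries stood between the model and control with no overlap. St3gal4 fell by 1.20 in the model (SE 0.04, adjusted p = 6.84e-14). By the ratio of mean FPKM this fall equalled that of C1galt1c1 (2.3 times for each). In WMW-H St3gal4 was 0.53 above the model (adjusted p = 7.2e-09) and below control by 0.67 (log2 change -0.67, adjusted p = 4.58e-10). St3gal1, which caps core 1 on mucins, had 17.2 ± 0.54, 11.6 ± 0.31 and 15 ± 0.819 FPKM, and fell by 0.53 in the model. St3gal6 had 57.6 ± 3.10, 42.4 ± 1.83 and 49.7 ± 3.91 FPKM. It fell by 0.43 in the model, and WMW-H lay below control as well (-0.21, adjusted p = 0.00144). The exact rank test gave no call there (adjusted p = 0.0581; range over alternatives 3.25e-05 to 0.0581).

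St6galnac6 (ENSMUSG00000026811), which adds alpha-2,6-linked sialic acid to chains that already end in sialic acid, was highest in the model. Of 9 rows of this family 4 were tested, with 2 higher and 1 lower in the model (all genes 45.5% and 20.6%). It had 454.9, 447.3, 459.7, 456.6 and 449.1 FPKM in control, 528.2, 522.3, 522.4, 517.7 and 510.0 in the model and 455.3, 425.2, 428.6, 420.0 and 435.4 in WMW-H. Every model library was above all others. It rose in the model by 0.20 (SE 0.02, adjusted p = 3.4e-07) and fell in WMW-H against it by 0.26 (adjusted p = 9.97e-09). Against control its change of -0.07 (adjusted p = 0.0115) had overlapping libraries, did not pass without the trend (adjusted p = 0.0513) or in the exact rank test (adjusted p = 0.0929), and became 0.01 after quantile normalization (adjusted p = 0.87; range over alternatives from 0.000128). The FPKM ratio of St3gal4 to St6galnac6 within a library was 0.969 to 1.04 in control, 0.335 to 0.408 in the model and 0.608 to 0.704 in WMW-H.

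The remaining sialyltransferases were lower in FPKM. St6galnac2 (ENSMUSG00000057286), which acts on core 1 of mucins, rose in the model by 0.32 (adjusted p = 6.9e-06), from 14 ± 0.562 to 17.7 ± 0.865 FPKM, and was at 14.8 ± 0.864 in WMW-H. A second row of that symbol (ENSMUSG00000110170), which shares exons with it, stayed under 1 FPKM. St6gal1, which acts on N-linked chains, fell in the model by 0.22, from 22.3 ± 0.62 to 19.0 ± 0.821 FPKM, and was at 21.1 ± 0.606 in WMW-H. Its change of -0.08 against control (adjusted p = 0.0714) passed when WMW-H replicate 4 was left out (adjusted p = 0.0421, and 0.00536 to 0.155 over all alternatives). St6galnac1, which makes the sialyl-Tn antigen and ends a chain at its first sugar, averaged 0.108 FPKM in control, 0.0846 in the model and 0.113 in WMW-H and was not tested. St8sia4, of the polysialic acid family, was the 1 tested of 6 alpha-2,8 genes, at 1.15 ± 0.101 FPKM in control, 0.539 ± 0.122 in the model and 0.79 ± 0.0364 in WMW-H. It reached 1 FPKM in the 5 control libraries and in no other, so it was tested only because control was high, and its difference is given as a description. St8sia5, a ganglioside enzyme chosen after its values were seen, narrowly missed the filter. It was at 0, 0, 0.03, 0.08 and 0 FPKM in control, 0.91, 1.21, 1.16, 1.20 and 1.04 in the model, and 0.22 to 0.63 in WMW-H.

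**Figure D4:**
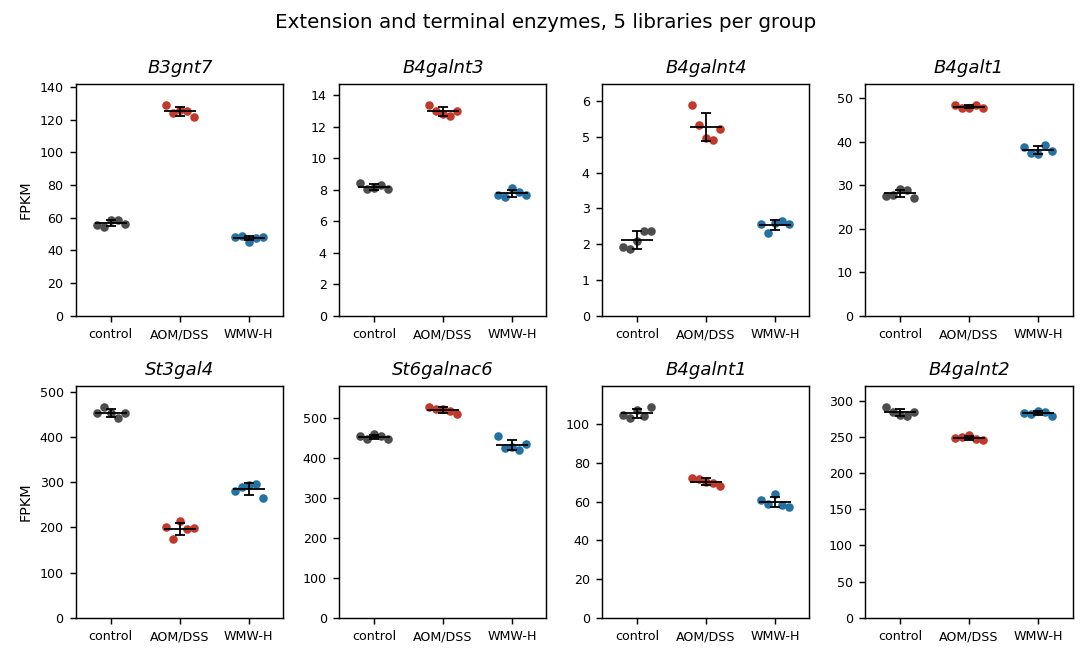
FPKM (y axis, from 0) of 8 extension and terminal enzymes in each library (points) of the 3 groups (x axis), with the mean and SD in black. B3gnt7, B4galnt3 and B4galnt4 are highest in the model, whereas St3gal4 drops from 442 to 466 FPKM in control to 175 to 213 in the model.

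Most fucosyltransferases that were tested passed in the model, with changes of 0.14 to 0.44 in size on the log2 scale. Among all tested genes 66.1% passed there. Fut2 (ENSMUSG00000055978), the secretor enzyme that puts alpha-1,2-linked fucose on intestinal mucins, had 113.1, 111.0, 104.4, 112.3 and 110.7 FPKM in control, 94.24, 95.72, 98.88, 97.12 and 94.76 in the model and 85.00, 87.57, 100.8, 94.11 and 89.48 in WMW-H. Control lay above both other groups, which overlapped. It fell by 0.20 in the model (SE 0.04, adjusted p = 0.000235) and was lower in WMW-H than in control (-0.27, adjusted p = 1.13e-05). The difference between WMW-H and the model, -0.07, did not pass (SE 0.04, adjusted p = 0.0926), but did without WMW-H replicate 3 (-0.11, adjusted p = 0.00396) and with TPM (adjusted p = 0.00648; range over alternatives 0.00396 to 0.898). Fut8, which adds core fucose to N-linked chains, fell in the model by 0.14, from 28.2 ± 0.803 to 25.4 ± 0.71 FPKM, and rose in WMW-H against it by 0.20, to 29.5 ± 1.39. Its difference of 0.06 from control in WMW-H (adjusted p = 0.153) passed when WMW-H replicate 3 was left out (0.09, adjusted p = 0.0189, and up to 0.821 over all alternatives). Fut4, which adds fucose in alpha-1,3 linkage, and Fut11 were chosen after their values were seen. Fut4 fell in the model by 0.30, from 18.8 ± 0.273 to 15.1 ± 0.526 FPKM, and Fut11 rose by 0.40 (adjusted p = 1.27e-05), from 3.32 ± 0.241 to 4.71 ± 0.416 FPKM. Fut1, a relative of Fut2 also chosen in that way, averaged 1.35 ± 0.341 FPKM in control, 0.725 ± 0.2 in the model and 0.731 ± 0.0727 in WMW-H. It reached the filter through its 5 control libraries and 1 model library, and Fut10 through 5 WMW-H libraries and 1 model library, so their calls are tied to the group in which they were high. Of 8 Fut genes 6 were tested, and 1 was higher and 4 lower in the model (all genes 45.5% and 20.6%). In WMW-H against the model 3 were higher (all genes 25.9%) and 3 did not pass.

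**Figure D5:**
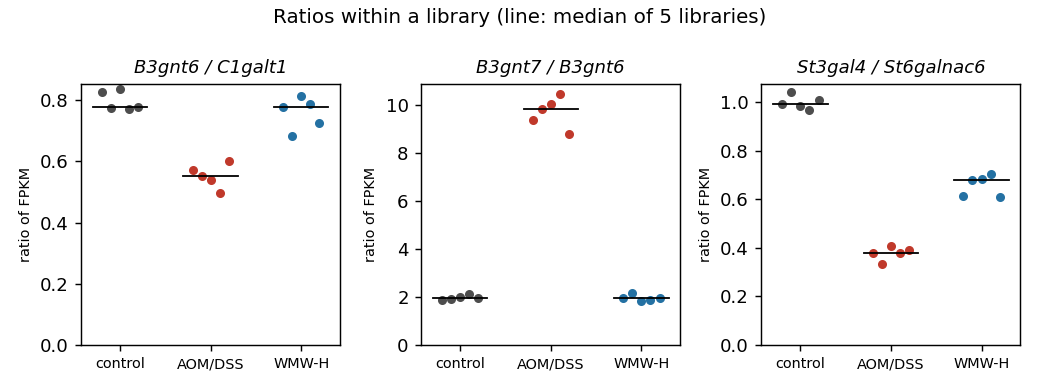
Ratio of FPKM (y axis, from 0) of 3 pairs of members within each library (points) by group (x axis), with the group median as a line. Model libraries are low for B3gnt6 over C1galt1 and for St3gal4 over St6galnac6, and high for B3gnt7 over B3gnt6 (8.80 to 10.5, against 1.84 to 2.16 in the other groups).

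Of 22 genes for sugar nucleotide supply and Golgi transport, all tested, 3 were higher and 14 lower in the model (median -0.28, beside 0.12 for all genes). In WMW-H against the model 12 were higher and 7 lower (median 0.12, beside -0.07), and against control 5 were higher and 12 lower. Gfpt1, which opens the hexosamine pathway, had 178 ± 1.39 FPKM in control, 122 ± 1.55 in the model and 169 ± 2.87 in WMW-H. Uap1, which makes UDP-GlcNAc and UDP-GalNAc, had 93.8 ± 2.24, 63.5 ± 0.485 and 72.3 ± 3.79 FPKM. Fpgt, of fucose salvage, had 9.29 ± 0.359, 5.08 ± 0.363 and 6.58 ± 0.342 FPKM, and Nans, which makes sialic acid, had 178 ± 3.70, 166 ± 3.67 and 139 ± 2.36 FPKM. The 3 that rose in the model were Gfpt2, a second copy of the first enzyme at 1.35 ± 0.302 and 3.38 ± 0.399 FPKM, Cmas, which activates sialic acid (0.12), and Slc35c1, the Golgi GDP-fucose transporter (0.10). Slc35a1, the Golgi transporter of activated sialic acid, chosen after its values were seen, had 68.0 ± 3.01, 41.0 ± 1.03 and 67.0 ± 6.81 FPKM.

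In the list of glycan sulfotransferases and sulfate supply, 11 of 18 genes were tested. In the model 3 were higher and 5 lower (all genes 45.5% and 20.6%). In WMW-H against the model 2 were higher and 4 lower (all genes 25.9% and 40.9%). Chst4, which sulfates N-acetylglucosamine, had 47.9 ± 2.28 FPKM in control, 30.3 ± 2.76 in the model and 28.3 ± 2.48 in WMW-H. Gal3st2 fell in the model by 0.51. Its near relatives Gal3st2b and Gal3st2c rose, by 0.70 (2.56 ± 0.365 to 4.79 ± 0.557 FPKM) and by 1.31 (0.303 ± 0.0537 to 2.24 ± 0.128 FPKM). These similar copies can share reads, and Gal3st2c at its low control level passed the filter through the model libraries. Papss2, which makes the sulfate donor, was 0.29 higher in WMW-H than in the model. Chst1 rose in the model by 0.32, from 2.13 ± 0.354 to 2.89 ± 0.147 FPKM.

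The mucin proteins that carry the chains were split. Of 13 listed genes 8 were tested, with 4 higher and 4 lower in the model. Muc2, the gel-forming mucin of the colon, had 1410 ± 28.2 FPKM in control, 817 ± 19.2 in the model and 1120 ± 104 in WMW-H, a fall of 0.79 in the model and a rise of 0.45 in WMW-H against it. Muc3a, a membrane mucin, fell in the model by 0.68, from 42.1 ± 1.14 to 25.8 ± 0.824 FPKM. The separate and more abundant row Muc3, chosen after its values were seen, fell by only 0.12, from 495 ± 10.5 to 455 ± 9.5 FPKM. Muc13, also on the membrane, rose by 0.44, from 617 ± 8.04 to 838 ± 9.34 FPKM. Muc6, a gel-forming mucin of the stomach, had 0.195 ± 0.0277 FPKM in control, 1.48 ± 0.0426 in the model and 0.526 ± 0.0635 in WMW-H. Muc20 had 0.411 ± 0.155, 1.58 ± 0.145 and 0.494 ± 0.179 FPKM. Both reached the filter only through the model libraries. They count among the 4 higher genes, so that count depends in part on calls tied to the group with high values.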

How the data were processed

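Poly(A) RNA was read on a NovaSeq 6000 for 15 libraries, 5 each of control, model and WMW-H (source: labels' protocols). The authors deposited FPKM per gene. RSEM, HISAT2, StringTie 1.3.1, fastp 0.18.0 and Bowtie2 2.2.8 were used, per the submitters' processing notes, in no stated order. Build, annotation and strand setting are not given in the sources used here. No counts were used, so no count model was run.

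The 12917 genes that reached 1 FPKM in 5 or more libraries were fitted as log2(FPKM + 1) in limma 3.58.1 (R 4.3.3), with all 15 libraries in 1 fit, a mean per group and a trended prior. Adding 1 understates changes of low genes. Tests are two-sided, and p was adjusted by Benjamini-Hochberg over all 12917 genes with a threshold of 0.05. The script was tested on simulated data. For depth, 90.2% of 5865 low values of single-transcript genes in GENCODE M21 lay within 0.1 of a whole fragment. Depth values are estimates.

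Members were named if they changed by at least 1.5-fold in any comparison, were the most abundant of their class, or belong to a list of known gut mucin enzymes. Up to 4 genes of each other list described were named by smallest p, with those called against its majority in the model. Others named were chosen after their values were seen. The members and lists were chosen with earlier results of these data known. Alternatives were TPM, size factors, quantile normalization, pseudocounts, filters, groups in the fit, no trend, an exact rank test, a replicate block and leaving out each library. Figures used matplotlib 3.10.9.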

Additional observations from a re-analysis of the deposited data

Results flagged for a closer look

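In 7 of 105 groups of 5 libraries, 1 library lay apart from the other 4, by a gap of more than 0.71 of the group's whole range (Dixon's 95% critical value). Chance alone flags about 1 in 20 such groups. St3gal6 in WMW-H replicate 3 had 56.6 FPKM against 47.1 to 48.4 in the others (0.86 of the range). C1galt1c1 in model replicate 5 had 15.6 FPKM against 12.8 to 13.2 (0.85). St3gal1 in control replicate 5 had 18.2 FPKM against 16.9 to 17.2 (0.77). B4galnt4 in WMW-H replicate 2 was low, at 2.3 FPKM against 2.56 to 2.64 (0.76), as was B3gnt7 in WMW-H replicate 3, at 45.0 against 47.7 to 48.6 (0.75). St8sia4 in control replicate 1 had 1.32 FPKM against 1.06 to 1.14 (0.73), and Fut2 in control replicate 3 had 104 against 111 to 113 (0.73).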

How the results depend on the processing

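Counts of members called stayed within 1.5 times in all alternatives run: 14 to 23 higher and 26 to 32 lower in the model against control, 24 to 29 and 17 to 24 in WMW-H against the model, and 14 to 23 and 20 to 26 in WMW-H against control. The all-gene shares moved too. In the model 51% were higher and 17.6% lower with TPM, and 29.1% and 32.3% with quantile normalization. In WMW-H against the model the shares were 22.1% and 45.7% with TPM, and 32.5% and 33% with quantile normalization. In WMW-H against control they were 34.9% and 24.2% with TPM, and 28.1% and 30.5% with quantile normalization. Of 99 comparisons of named members, 84 kept their call in every alternative that gave a value, and in 6 the call changed when 1 library was left out. St8sia4 against control had a value in 16 of 21 alternatives, since it fell under the filter without any 1 control library. Direction turned for B3gnt3 in the model with size factors (-0.10) and, with no call, quantile normalization (-0.02), for Galnt4 in the model with size factors (-0.09) and quantile normalization (-0.08), and for St6galnac6 in WMW-H against control with quantile normalization (0.01). Galnt5 in WMW-H against control, never called, ran from -0.07 to 0.02. The cause was not tested. The share of all calls that were higher in WMW-H against the model was 38.8% as deposited, 32.6% with TPM and 49.6% with quantile normalization, and in WMW-H against control 59.5%, 59.1% and 48%. Replicate numbers did not pair the libraries: same-numbered deviations correlated at -0.05 to 0.03. With the replicate block 18 members were higher and 28 lower in the model (all genes 45.3% and 20.4%). The block gave 26 and 20 in WMW-H against the model (all genes 25.7% and 40.7%), and 19 and 22 in WMW-H against control (all genes 35% and 23.8%). The filter of 1 FPKM in 5 libraries left 23 members untested. With no filter, 22 members were higher and 29 lower in the model against control. Of all 18399 genes then tested, 6328 were higher and 3067 lower.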
